A study of Mus musculus with 12 samples.

Results

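The hedgehog ligands, receptors and Gli factors were read here as 9 genes: the ligand genes Dhh, Shh and Ihh, the receptor genes Ptch1 and Smo, the transcription factor genes Gli1, Gli2 and Gli3, and Hhip, which encodes a ligand-binding inhibitor. They were taken by symbol, and all 9 were found among the 47480 gene symbols of the table. RNA had been sequenced from mouse trigeminal nerve in 12 libraries. The normal nerve group (n = 6) had the genotype Nf1 flox/flox PostnCre-, and the plexiform neurofibroma group (n = 6) was Nf1 flox/flox PostnCre+. Both groups thus carried the floxed Nf1 allele, and the tumour group alone carried the Cre transgene named for Postn, so that Cre and tumour state cannot be told apart. Ages were not among the labels used here.

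Hedgehog proteins are secreted, lipid-modified signals. Without ligand, Ptch1 holds the membrane protein Smo inactive and Gli proteins, chiefly Gli3, are processed to repressors. Ligand binding to Ptch1 frees Smo, and Gli activators then switch on targets that include Gli1, Ptch1 and Hhip themselves. In peripheral nerve, Schwann cells are the known source of Dhh, which signals to perineurial cells and endoneurial fibroblasts and is needed for a normal perineurium.

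Library totals ran from 14160025 to 19989351 estimated counts in normal nerve and from 15506364 to 19745644 in plexiform neurofibroma. Levels are given as CPM, the count scaled to a fixed library total after TMM adjustment. Markers fixed for other cell types showed that the libraries were mixtures. The marker score of a cell type was the mean log2 CPM of its genes, and sensory neuron scores lay between 8.13 and 9.18 in normal nerve and between 8.50 and 8.96 in tumour. Normal nerve 2 had the lowest Schwann cell score (7.48) and fibroblast score (3.003), normal nerve 6 the highest central glia score (7.35), and normal nerve 3 and plexiform neurofibroma 1 the highest skeletal muscle scores (5.37 and 7.18). Nf1 itself averaged 131 ± 35.8 CPM in normal nerve against 83.8 ± 8.13 CPM in tumour (SD, n = 6 each), with an adjusted p of 0.0179 in edgeR, and the groups overlapped.

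The promoter windows of Dhh, the ligand gene whose level rose, and Ptch1, the receptor and target gene whose level did not pass the test, are shown for comparison. Both come from RefSeq on GRCm38.p6 and run from 250 bases before to 50 bases after a transcription start. Capitals mark the GC box GGGCGG on either strand. Dhh lies on the minus strand of chromosome 15 (gene, positions 98891152 to 98898540), and its window is chr15:98898491-98898790. Ptch1 lies on the minus strand of chromosome 13 (gene, positions 63508328 to 63573598), and its window, chr13:63565686-63565985, lies inside the annotated gene range, at a start downstream of the outermost one.
Dhh promoter: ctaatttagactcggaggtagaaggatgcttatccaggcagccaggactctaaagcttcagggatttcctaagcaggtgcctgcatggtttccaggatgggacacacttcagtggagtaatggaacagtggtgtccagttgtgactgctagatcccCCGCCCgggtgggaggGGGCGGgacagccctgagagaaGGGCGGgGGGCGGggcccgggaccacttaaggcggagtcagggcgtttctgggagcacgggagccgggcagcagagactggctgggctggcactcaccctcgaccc
Ptch1 promoter: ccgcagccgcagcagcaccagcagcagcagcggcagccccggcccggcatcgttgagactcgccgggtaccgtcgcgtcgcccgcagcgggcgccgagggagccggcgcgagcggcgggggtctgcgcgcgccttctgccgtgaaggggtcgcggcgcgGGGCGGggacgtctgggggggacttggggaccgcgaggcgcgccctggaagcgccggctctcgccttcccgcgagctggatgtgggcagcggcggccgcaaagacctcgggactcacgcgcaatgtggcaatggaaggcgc
The Dhh window held 4 GC boxes and the Ptch1 window held 1. At least 1 GC box stood in 35.7% of the 32851 windows of the same length. Of the other member windows, those of Ihh, Gli3 and Hhip held 2 each, that of Gli2 held 1 and that of Smo 0. A relation between these counts and RNA level was not tested. The Gli consensus GACCACCCA, read on both strands, was in 0 of the 7 member windows that had an entry and in 0.253% of all windows. With so low a share over all windows, 0 of 7 says little, and Shh and Gli1 had no entry. These counts describe letters in these windows, and binding was not measured.

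Of the 9 members, 8 passed the filter on low counts, Ihh being the exception. In edgeR's quasi-likelihood test, 1 of the 8 (Dhh) was higher in plexiform neurofibroma at an adjusted p under 0.05, and 0 were lower. Across all 17236 tested genes, 18.7% were called, 10.0% higher and 8.63% lower. At an unadjusted p under 0.05 the members numbered 3 (Dhh, Smo and Gli1), against 35.2% of all tested genes. The median log2 fold change was 0.35 over the 8 members and -0.02 over all tested genes. For 0 of the 8 were the groups free of overlap, against 7.39% of all tested genes. The share of called members was thus near that of the whole table.

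**Figure D1:**
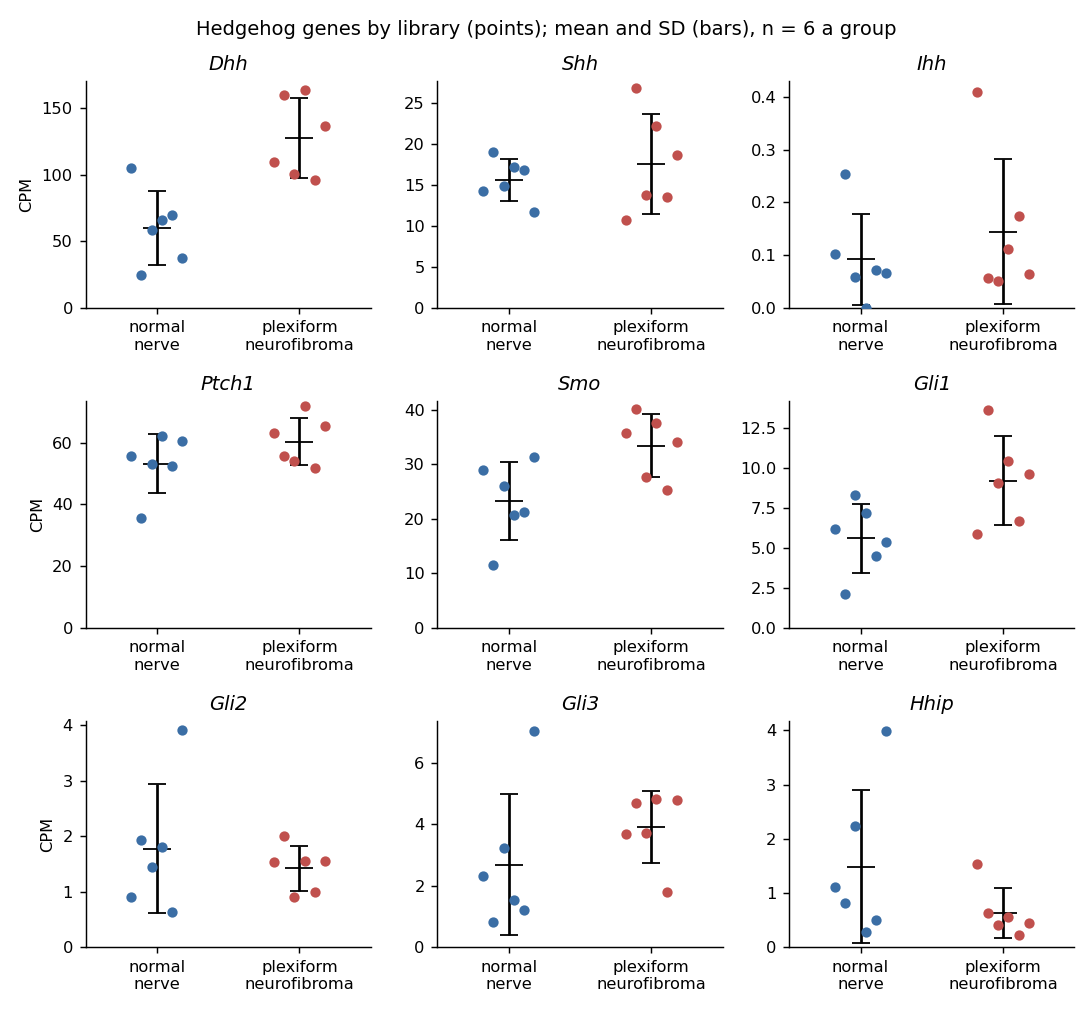
Each panel plots the CPM of 1 hedgehog gene (y axis, from 0) in the 6 normal nerve and 6 plexiform neurofibroma libraries, as points, with the group mean and SD as bars. Dhh means were 60.2 and 128 CPM, and the ranges of the groups overlap in all 9 panels.

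Dhh, the ligand gene of Schwann cells, was the member that rose. In normal nerves 1 to 6 its level was 104.8, 24.5, 58.5, 66.0, 69.9 and 37.4 CPM, and in plexiform neurofibromas 1 to 6 it was 109.3, 160.1, 100.3, 163.6, 95.9 and 136.7 CPM. All 6 tumours lay above the normal median of 62.3 CPM and 4 lay above the highest normal library, so that normal nerve 1 overlapped the low end of the tumours. The means were 60.2 ± 27.97 and 128 ± 30.05 CPM (SD, n = 6 each). Dhh was 2.12-fold higher in tumour (95% interval 1.36 to 3.30), a log2 fold change of 1.08 with an SE of 0.29 and an adjusted p of 0.0245 in edgeR. The call was lost without plexiform neurofibroma 2 (log2 fold change 1.01, adjusted p = 0.0546 in edgeR) or 4 (1.001, adjusted p = 0.0598), and with no filter on low counts (1.09, adjusted p = 0.0654).

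Rhebl1, a protein-coding gene on the same strand, shares 3389 bases of annotated range with Dhh. Its level was 10.97 CPM in normal nerve and 10.6 CPM in tumour on average, with an adjusted p of 0.754 in edgeR. The deposited Dhh value was whole within 0.01 in all 12 libraries. No sharing of reads between Dhh and another gene was thus visible in the values.

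Shh, the ligand best known from neural and limb patterning, is placed on the minus strand of chromosome 5, from 28456815 to 28467256. Its lowest, median and highest CPM were 11.8, 15.9 and 19.0 in normal nerve and 10.7, 16.2 and 26.9 in tumour, so that the tumours spanned the whole normal range. The fold was 1.12 with a 95% interval of 0.826 to 1.53 and an adjusted p of 0.590 in edgeR. Its level is uncertain, since 9530036O11Rik (8983 shared bases) and Gm26894 (883) overlap it on the opposite strand. The Shh value was not whole in 10 libraries, those of Gm26894 were not whole in the same 10, and the sum of the 3 genes was whole within 0.01 in all 10. Estimated counts had thus been divided among genes of opposite strands at this locus.

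Ihh, the ligand known from cartilage, was close to absent, with 0 to 8 estimated counts a library. Its lowest, median and highest CPM were 0, 0.0688 and 0.254 in normal nerve and 0.0509, 0.0877 and 0.410 in tumour. The 0 in normal nerve 4 allows up to 0.192 CPM for counting error. Ihh was not tested.

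Since the 3 ligand transcripts differ in length, their levels were compared as CPM per kb of the longest annotated transcript. On that scale Dhh had 14.2 ± 6.59 in normal nerve and 30.1 ± 7.08 in tumour (SD, n = 6 each), against 5.51 ± 0.90 and 6.19 ± 2.15 for Shh. The share of Dhh in the ligand total ran from 46.0% to 83.0% (median 72.2%) in normal nerve and from 79.9% to 86.8% (median 83.0%) in tumour. Dhh was therefore the main ligand transcript of the nerve in 11 of the 12 libraries, and Shh exceeded it in normal nerve 2, at 53.2% of the total. The shares of the groups overlapped.

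**Figure D2:**
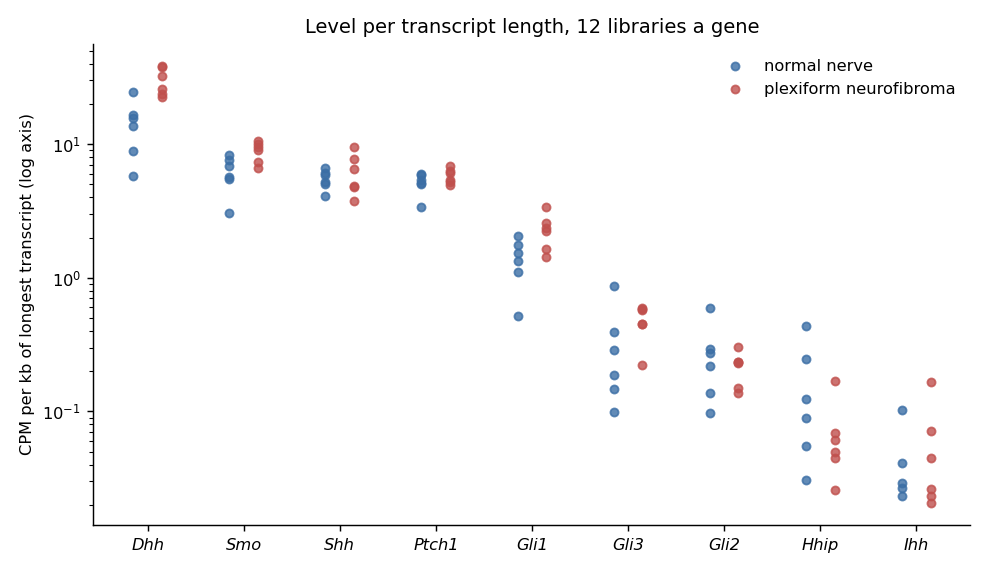
Points give the CPM per kb of the longest transcript (log axis) of each hedgehog gene in every library, blue for normal nerve and red for plexiform neurofibroma, with genes ordered by their normal mean. Dhh stood highest and Ihh lowest in both groups, and the normal nerve library with no Ihh count cannot be drawn on this axis.

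By mean CPM per kb, the order was the same in both groups: Dhh, Smo, Shh, Ptch1, Gli1, Gli3, Gli2, Hhip and Ihh. In normal nerve, Smo (6.17 ± 1.90), Shh (5.51 ± 0.90) and Ptch1 (5.12 ± 0.92 CPM per kb, SD, n = 6) differed by less than the SD of Smo. In tumour, Smo (8.85 ± 1.54) lay above Shh (6.19 ± 2.15) and Ptch1 (5.81 ± 0.74) on average, with overlapping libraries. Gli1 lay below every Ptch1 library in both groups, at 0.514 to 2.04 CPM per kb in normal nerve and 1.44 to 3.36 in tumour. The libraries of Gli3, Gli2 and Hhip overlapped from neighbour to neighbour, as did those of Hhip and Ihh. Dhh stood clear of Smo in tumour (22.6 against at most 10.6) but not in normal nerve.

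Ptch1, the ligand receptor and a direct target of the pathway, differed little between the groups. Its lowest, median and highest CPM were 35.4, 54.4 and 62.0 in normal nerve and 51.8, 59.5 and 71.7 in tumour. Normal nerve 2 stood apart at the low end, and the other 5 normal libraries lay within the tumour range. The fold was 1.13 with a 95% interval of 0.939 to 1.37 and an adjusted p of 0.321 in edgeR. An increase of the size seen for Dhh lies outside this interval.

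Smo, the signal transducer, is annotated on the plus strand of chromosome 6, from 29735503 to 29761365. Its lowest, median and highest CPM were 11.4, 23.7 and 31.4 in normal nerve and 25.2, 35.0 and 40.2 in tumour. The upper normal libraries overlapped the lower tumours. The fold was 1.44 with a 95% interval of 1.05 to 1.95, and the adjusted p of 0.0911 in edgeR missed the threshold. Smo passed it without normal nerve 6 (log2 fold change 0.62, adjusted p = 0.0400 in edgeR) and in limma-voom with sample weights (0.58, adjusted p = 0.0195).

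Gli1, the Gli factor that depends on pathway activity for its own transcription, is annotated on the minus strand of chromosome 10, from 127329882 to 127341974. Its lowest, median and highest CPM were 2.09, 5.78 and 8.29 in normal nerve and 5.84, 9.35 and 13.6 in tumour. All 6 tumours lay above the normal median, and the groups overlapped. The fold was 1.65 with a 95% interval of 1.07 to 2.54 and an adjusted p of 0.0965 in edgeR, short of the threshold. It passed without the 3 libraries with the highest muscle or central glia scores (log2 fold change 0.997, adjusted p = 0.0436 in edgeR), a setting chosen after the data were seen, under which Dhh did not (0.99, adjusted p = 0.0813).

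Gli2, the main activator of the family, and Gli3, its main repressor, were low. Gli2 (chromosome 1, 118834132 to 119053619, minus strand) had a lowest, median and highest CPM of 0.642, 1.62 and 3.92 in normal nerve and 0.915, 1.54 and 2.01 in tumour. Its log2 fold change of -0.31 (SE 0.38, adjusted p = 0.582 in edgeR) changed sign without normal nerve 6, the highest library, to 0.07. Gli3 (chromosome 13, 15463235 to 15730026, plus strand) had 0.814, 1.93 and 7.04 CPM in normal nerve and 1.80, 4.205 and 4.82 in tumour, as lowest, median and highest. Normal nerve 6 was again the highest of all 12. Gli3 did not pass the test (log2 fold change 0.54, SE 0.45, adjusted p = 0.411 in edgeR), but without normal nerve 6 it did (1.10, adjusted p = 0.0294). That library also had the highest central glia score, and the part of those cells in the Gli2 and Gli3 values was not tested.

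Within the Gli family, Gli1 made up a median of 77.6% of the summed CPM per kb in normal nerve (47.7% to 81.9%) and 77.4% in tumour (67.8% to 81.7%). The medians were close, and the tumour libraries lay inside the normal range.

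Hhip, a membrane protein that binds and sequesters ligand and is itself a target, is annotated on the minus strand of chromosome 8, from 79965851 to 80058006. It had 4 to 60 estimated counts a library. Its lowest, median and highest CPM were 0.278, 0.965 and 3.98 in normal nerve and 0.233, 0.503 and 1.54 in tumour. Normal nerves 3 and 6 were high and the other 4 overlapped the tumours. The tumour level was 0.434 times the normal one with a 95% interval of 0.175 to 1.07 and an adjusted p of 0.172 in edgeR.

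Dhh was thus called and Ptch1 was not, and the 2 were compared within each library, as a ratio chosen after the values had been seen. That choice drew on the same libraries, so the p-values below are no separate evidence of a difference. The part of cell mixture in these ratios was not tested. The log2 ratio of Dhh to Ptch1 was 0.06 ± 0.60 in normal nerve and 1.06 ± 0.27 in tumour (SD, n = 6 each). The difference of 0.9999 had p = 0.00866 in a two-sided exact permutation test, adjusted p = 0.0260 over 3 ratios. Without normal nerves 2 and 6 it was 0.67, adjusted p = 0.0571 in the exact permutation test. For Dhh to Gli1 the difference was 0.43 (exact permutation, adjusted p = 0.115), and for Gli1 to Ptch1 it was 0.57 (exact permutation, adjusted p = 0.0812).

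**Figure D3:**
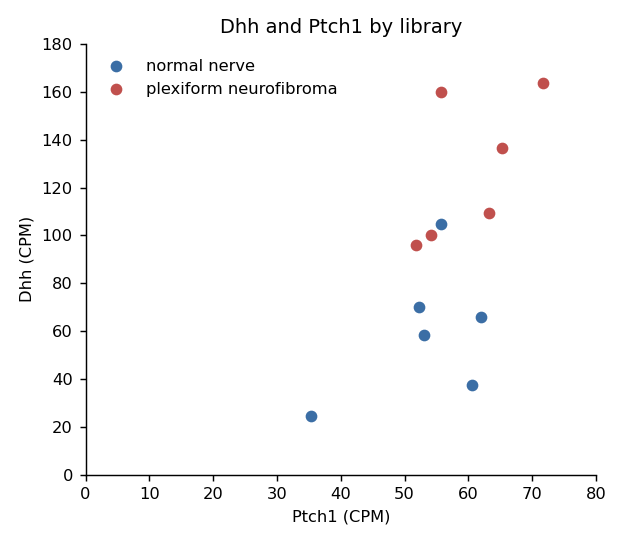
Points are the 12 libraries, with Ptch1 on the x axis and Dhh on the y axis, both in CPM from 0. Tumour libraries lie above normal ones in Dhh at similar Ptch1, with normal nerve 1 (104.8 CPM of Dhh) among the tumours and normal nerve 2 at the lower left.

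Other genes of the pathway were read from lists by role. Of 6 tested genes for ligand processing and release, 0 rose and 1 fell, with a median log2 fold change of -0.29. Disp2, a Dispatched family member, was the one that fell, from a median of 237 CPM (193 to 290) to 150 CPM (132 to 209), 0.663 times the normal level (adjusted p = 0.00798 in edgeR). The groups overlapped at their edges.

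Of 8 tested co-receptor and ligand-binding genes, 1 rose and 1 fell. Gpc3, a glypican that binds hedgehog ligand and limits signalling, rose from a median of 54.8 CPM (10.3 to 57.9) to 163 CPM (88.0 to 219). That was 3.50-fold (95% interval 2.01 to 6.10, adjusted p = 0.00772 in edgeR), with no overlap. Boc, a co-receptor that promotes ligand reception, fell from 15.99 CPM (14.2 to 16.9) to 10.4 CPM (8.65 to 12.0), again with no overlap. Its level in tumour was 0.652 times the normal one (95% interval 0.559 to 0.760, adjusted p = 0.00309 in edgeR). The inhibitor and the co-receptor thus moved in opposite directions.

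Of 24 tested regulators of Smo and Gli in the cytoplasm and cilium, 2 rose and 6 fell, and the median log2 fold change was -0.08. Evc, a ciliary protein that acts with Smo, rose 1.89-fold (adjusted p = 0.00611 in edgeR), from a median of 14.1 to 28.7 CPM. Kif7, a ciliary kinesin that controls Gli proteins, rose 1.66-fold (adjusted p = 0.0228), from 2.98 to 5.08 CPM. The call of Kif7 was lost without normal nerve 5 (adjusted p = 0.0514) or any 1 of tumours 2, 4 and 6 (adjusted p up to 0.0585). Both genes act near Smo and Gli at the cilium.

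The genes that fell in this group were mostly kinase genes, though other kinase genes of the same list were not called. Prkaca, a catalytic subunit of protein kinase A, which promotes Gli repressor formation, was at 0.729 times the normal level (adjusted p = 0.00272 in edgeR). Prkacb, its paralog, was at 0.793 times (adjusted p = 0.0133). Grk2, listed under its older symbol Adrbk1, encodes a kinase that phosphorylates Smo and was at 0.718 times (adjusted p = 0.00675). Gsk3b, which also phosphorylates Gli proteins, was at 0.772 times (adjusted p = 0.0387). The call of Gsk3b held in 10 of 23 alternatives.
Over these 3 lists, 3 of 38 tested genes rose and 8 fell, with a median log2 fold change of -0.06. The shares over all tested genes were 10.0% higher and 8.63% lower. Without normal nerve 5 or any 1 of tumours 2, 4 and 6, the calls numbered 7, with 2 higher and 5 lower.

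Of 16 tested genes known as hedgehog targets in other tissues, 6 rose and 2 fell, with a median log2 fold change of 0.09. Over all tested genes, 10.0% were called higher and 8.63% lower. Ccnd1, a cyclin of the entry into the cell cycle, rose from a median of 27.9 CPM (8.85 to 34.2) to 128 CPM (69.6 to 162), with no overlap. That was 4.65-fold (95% interval 2.91 to 7.44, adjusted p = 0.00191 in edgeR). Ccnd2, its paralog, rose 2.65-fold (adjusted p = 0.00686). Both cyclins are also targets of growth factor signalling.

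Nr2f2, a nuclear receptor, rose 1.40-fold (adjusted p = 0.00523 in edgeR), and Prdm1, a transcriptional repressor, rose 1.98-fold from a median of 0.883 CPM (adjusted p = 0.0153). Jag2, a Notch ligand, fell to 0.641 times (adjusted p = 0.00475) and Cntfr, a cytokine receptor subunit, to 0.737 times (adjusted p = 0.00499) the normal level. The targets did not move one way.

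**Figure D4:**
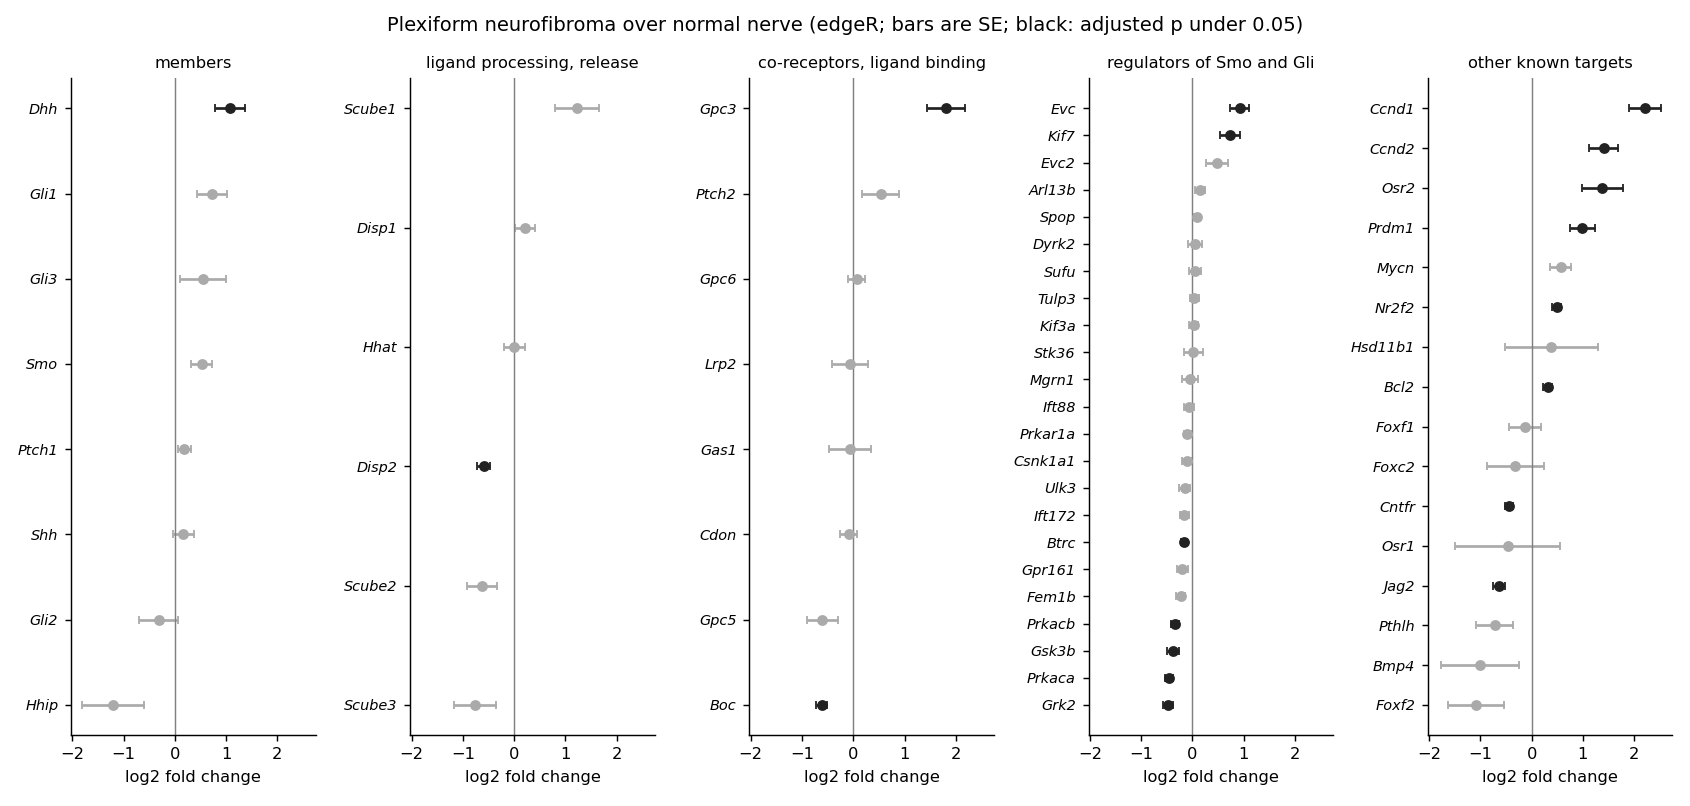
Each point is the log2 fold change of 1 tested gene in plexiform neurofibroma over normal nerve (x axis), with its SE as a bar, black where the adjusted p was under 0.05 and grey otherwise. Panels hold the 8 tested hedgehog members, ligand release, co-receptors, regulators of Smo and Gli, and other targets, and Dhh is the 1 black point among the members.

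Markers of the cells that send and receive the signal also differed between the groups. For all the marker lists below, the shares to compare are 10.0% higher and 8.63% lower over all tested genes. Of 12 Schwann cell markers, 7 rose and 0 fell (median log2 fold change 0.74), and their summed level ran from 5391 to 14695 CPM in normal nerve and from 13642 to 23287 CPM in tumour. S100b rose 1.74-fold (adjusted p = 0.00115 in edgeR) and Pmp22, a myelin protein gene, 2.38-fold (adjusted p = 0.00576). In bulk RNA, more cells of a type and more RNA per cell cannot be told apart.

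Of 10 fibroblast markers, 5 rose and 0 fell (median log2 fold change 0.998), with sums of 235 to 1351 CPM in normal nerve and 1529 to 3539 CPM in tumour. Their log2 fold changes were above 0 for 8 of the 10 and ran from -1.41 to 2.10. Col3a1 rose 4.30-fold (adjusted p = 0.00952 in edgeR) and Col1a2 2.70-fold (adjusted p = 0.0153). Of 6 tested endoneurial fibroblast markers, 3 rose and 0 fell (median 0.74, sums of 58.8 to 117 and 105 to 156 CPM). Spon2 rose 3.72-fold (adjusted p = 0.00115) and Osr2, which is also on the target list, 2.60-fold (adjusted p = 0.0296). The call of Osr2 was lost without any 1 of normal nerves 3 and 5 and tumours 2, 4 and 6 (adjusted p up to 0.0683 in edgeR). Of 8 tested perineurial markers, 2 rose and 0 fell (median -0.25, sums of 285 to 357 and 267 to 353 CPM), namely Ntn4 (1.78-fold, adjusted p = 0.0244) and Cldn1 (1.55-fold, adjusted p = 0.0469). The log2 fold change was above 0 for 3 of the 8 perineurial markers and for 5 of the 6 endoneurial ones. Markers of receiving fibroblasts rose more widely than perineurial ones in these counts, and that difference between lists was not tested.

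Markers of other cell types were read in the same way. Of 11 sensory neuron markers, 0 rose and Snap25 fell (0.722 times, adjusted p = 0.00986 in edgeR, with sums of 5354 to 9999 and 6696 to 8564 CPM). Of 7 tested endothelial markers, 0 rose and Cdh5 fell (0.619 times, adjusted p = 0.0278, with sums of 88.5 to 208 and 73.3 to 128 CPM). Of 8 macrophage markers, 2 rose, Aif1 (3.35-fold, adjusted p = 0.0177) and Csf1r (1.80-fold, adjusted p = 0.0475), with sums of 53.2 to 251 and 170 to 378 CPM.
None of 7 tested central glia markers (78.4 to 2345 and 81.8 to 859 CPM) or 6 tested muscle markers (42.1 to 415 and 37.9 to 1610 CPM) was called. The smallest p belonged to Slc1a2 (adjusted p = 0.165 in edgeR) and Actn3 (adjusted p = 0.280). No marker on these lists was at 0 in every library.

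Dhh was then set against the Schwann cell markers of the same library, as its log2 CPM minus the marker score. The difference was -2.26 ± 0.34 in normal nerve and -1.90 ± 0.11 in tumour (SD, n = 6 each). Dhh was thus 0.36 higher in tumour on this log2 scale, while its edgeR log2 fold change without the markers, a different measure, was 1.08. The two-sided exact permutation p was 0.0195, adjusted p = 0.0390 over 4 such values, and the smallest p this design allows is 0.00216. Normal nerves 2 and 6 had the lowest values (-2.86 and -2.43), and the groups overlapped. Without normal nerve 2 the difference was 0.24 (exact permutation, adjusted p = 0.0606), and without both it was 0.17 (adjusted p = 0.0889, exact permutation). The call was also lost without any 1 of tumours 1, 2, 3, 4 and 6 (exact permutation, adjusted p from 0.0649 to 0.104) and without the 3 libraries with the highest muscle or central glia scores (exact permutation, adjusted p = 0.0847), and it held in 9 of 17 alternatives. With the Schwann cell score as a covariate in edgeR, the log2 fold change of Dhh was -0.16 (adjusted p = 0.616), and 2 of all 17236 tested genes were called.

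**Figure D5:**
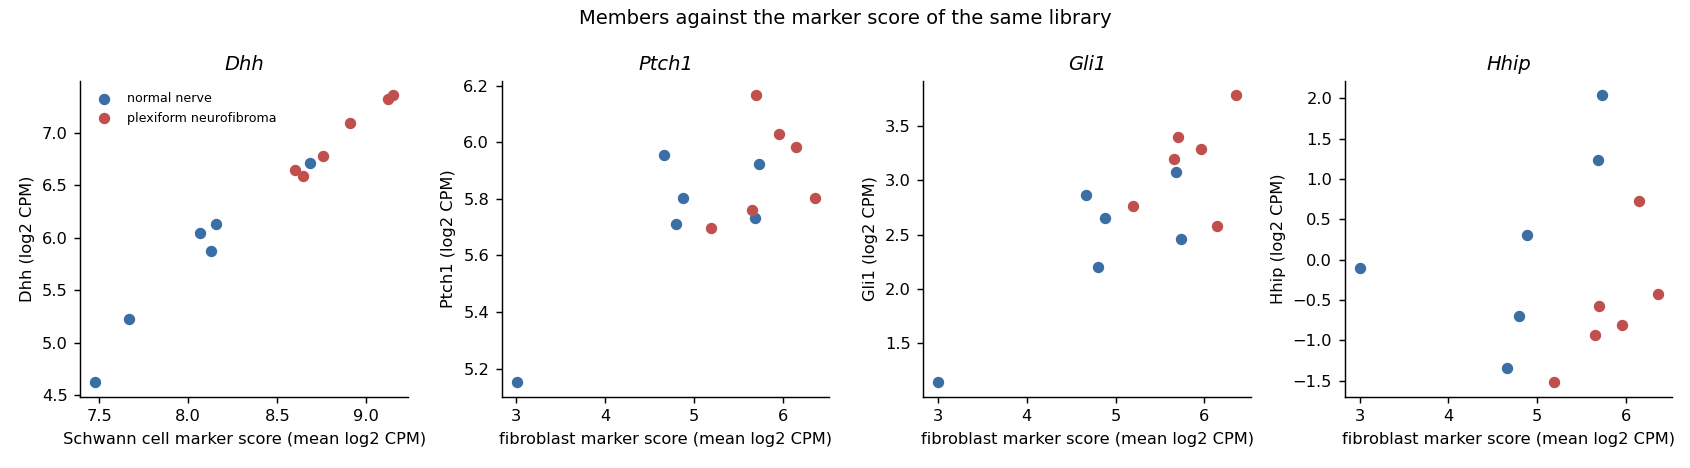
Each point is 1 library, with the marker score (mean log2 CPM of the Schwann cell or fibroblast markers) on the x axis and the log2 CPM of Dhh, Ptch1, Gli1 or Hhip on the y axis. Dhh rises with the Schwann cell score through both groups, while normal nerve 2 stands alone at the lowest fibroblast score of 3.003.

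The readouts of reception were set against the fibroblast markers in the same way. Ptch1 minus the fibroblast score was 0.92 ± 0.77 in normal nerve and 0.07 ± 0.40 in tumour (SD, n = 6 each), a difference of -0.85 (exact permutation, adjusted p = 0.0462). It was -0.60 without normal nerve 2 (exact permutation, adjusted p = 0.0952), and the call was also lost without any 1 of normal nerves 1, 4 and 5 or tumours 1, 2, 3, 4 and 6. Hhip minus the fibroblast score was -4.56 ± 1.08 and -6.43 ± 0.53, a difference of -1.87 (exact permutation, adjusted p = 0.0260). This call was lost without any 1 of tumours 2, 3, 4 and 6 (exact permutation, adjusted p = 0.0519). Gli1 minus the score differed by -0.27 (exact permutation, adjusted p = 0.385). With the median of the markers in place of their mean, that value was -0.76 (exact permutation, adjusted p = 0.00866). Ptch1 and Hhip were thus lower per unit of fibroblast marker RNA in tumour, in values that several single libraries decided. The call held in 7 of 17 alternatives for Ptch1 and in 12 of 17 for Hhip, with adjusted p up to 0.104 and 0.0762 (exact permutation). The fibroblast score was itself higher in tumour (5.19 to 6.36, against 3.003 to 5.73), which lowers the difference for any level gene. The endoneurial score ran from 1.805 to 3.14 in normal nerve and from 3.28 to 3.81 in tumour. For the perineurial score the ranges were 3.92 to 4.88 and 4.28 to 4.65. No member was set against these 2 scores.

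Whether ligand and target levels moved together was read within each group, over 6 libraries. Of 8 correlations among Dhh, Ptch1, Gli1 and Hhip, none passed, the lowest adjusted p being 0.3 for Pearson's r and 0.411 for Spearman's rho (exact permutation of pairings). For Ptch1 and Gli1 in normal nerve, Pearson's r was 0.865 (exact permutation p = 0.0694) and Spearman's rho 0.6 (exact permutation p = 0.242). Without the 2 libraries farthest from the median of Ptch1, r was -0.14, so that the relation of this pair rests on those libraries. For Dhh and Ptch1, r was 0.637 in normal nerve and 0.62 in tumour. Without the 2 libraries farthest from the median of Dhh, these values were -0.434 and 0.878. For Dhh and Gli1, r was 0.705 in normal nerve and 0.782 in tumour, and 0.096 and 0.483 without those libraries. Among the pairs with Dhh, the relation thus became closer only for Dhh and Ptch1 in tumour. For Gli1 and Hhip, r was 0.158 in normal nerve and -0.208 in tumour. Without the 2 libraries farthest from the median of Gli1, these values were -0.267 and 0.996. For Ptch1 and Gli1 in tumour, r was 0.112, and -0.489 without the 2 libraries farthest from the median of Ptch1. Values that change this much over so few libraries cannot decide the question.

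As a description of likeness, each of Dhh, Ptch1 and Gli1 was compared with 11584 genes over the 12 libraries, after taking off the group means. Ndrg1 (Pearson's r 0.989), Sema3b (0.988) and Lctl (0.987) were most like Dhh. Zfp866 (0.942), SEPT10 (0.934) and Ctbs (0.931) were most like Ptch1, and Meox2 (0.945), Ccl11 (0.913) and Dap (0.903) most like Gli1. The genes nearest to Dhh, Ptch1 and Gli1 were different ones, which says little with 11584 genes compared. All points share the same libraries and their cell mixtures.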

How the data were processed

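The authors deposited 1 table of expected counts per gene symbol with no normalization, and these estimated counts were rounded to whole numbers before testing. The submitters' processing notes name mm10 as the build and list STAR 2.4.2a, Salmon 0.60, FastQC and DESeq2 without saying what each did. Which annotation and strand setting were used is not given in the sources used here, and the labels name 2 library kits, one of them stranded. Columns were tied to samples by title, and groups were read from the tumour stage and genotype labels.

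Symbols were placed on GENCODE annotation of GRCm38. Genes were filtered with filterByExpr and tested by the quasi-likelihood test of edgeR 4.0.16 (R 4.3.3, TMM, robust, no covariate) on all 12 libraries. Adjustment was by Benjamini-Hochberg over 17236 genes, and calls were made at 0.05. Intervals are 95%. Log2 CPM used a prior count of 2. On simulated counts for this comparison (17236 genes), 32.8% of 1.5-fold, 71.6% of 2-fold and 97% of 4-fold changes were recovered. Only a small set of genes was changed there, the lowest-count genes were not among them, and no cell mixture was simulated. Recovery may therefore differ in the real counts. Relative levels used exact permutation tests. Nothing among the labels says that libraries came from separate animals, so p-values measure spread between libraries, which may be technical. Alternatives included DESeq2 1.42.0 and limma 3.58.1 (voom with sample weights), other filters and factors, covariates, and libraries left out.

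The members, gene lists and tests were chosen with earlier results of these data known. All members were named. Of each pathway list, up to 6 called genes were named by p-value, and of each marker list 2 called genes or the 1 with the smallest p. A gene of the regulator list is counted but not named or drawn, and is not reported here. Mosmo was not matched and Foxl1 was not tested.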

Additional observations from a re-analysis of the deposited data

Results flagged for a closer look

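Within each group of 6 libraries, the gap between the highest or lowest value and its neighbour was measured against the range, over 26 groups. Chance flags about 1 in 20 such groups. Ptch1 in normal nerve 2 was far below the others, at 35.4 CPM, with the next value at 52.3. Plexiform neurofibroma 1 stood apart in 4 values. Its Ihh level was 0.410 CPM (next 0.175) and its Hhip level 1.54 CPM (next 0.630). Its Hhip minus fibroblast score was -5.42 (next -6.28), and its Gli1 minus fibroblast score was -3.57 (next -2.68). This library had the highest muscle marker score (7.18), and the part of that tissue in these values was not tested. Gli3 in plexiform neurofibroma 5 was low, at 1.80 CPM, with the next value at 3.69.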

How the results depend on the processing

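Other size factors, DESeq2, a length correction and a neuron score covariate left the count of called members at 1 of 8. It was 0 with no filter, 3 in limma-voom with sample weights (Dhh, Smo and Gli3; voom without weights was not run), 0 with the Schwann cell score as covariate, 0 to 3 with 1 library left out, and 2 under each of the 2 sets of libraries left out after seeing the data. All genes called numbered 5565 in weighted limma-voom, 2 with the Schwann covariate, and 1893 to 5031 with 1 library left out. Other pathway genes called numbered 0 with that covariate and 7 to 14 with 1 library left out, and targets 0 with the covariate. Under it the log2 fold changes of Dhh (-0.16), Shh (-0.16), Ptch1 (-0.10), Smo (-0.0049), Gli1 (-0.15) and Gli2 (0.51) changed sign. The score differs between groups, so the score and the group cannot be told apart well. Gli2 also changed sign in weighted limma-voom (0.14), without normal nerve 6 (0.0745, in a range of -0.48 to 0.0745 with 1 library left out), without the 3 libraries with the highest muscle or central glia scores (0.071) and without normal nerves 2 and 6 (0.25). With 1 library left out, relative levels ran from 0.24 to 0.42 (Dhh), -1.02 to -0.60 (Ptch1), -0.45 to -0.09 (Gli1) and -2.16 to -1.58 (Hhip). With the median of the markers, Gli1 was -0.76. Without the 3 libraries Dhh was 0.33 relative to Schwann cell markers. Without normal nerves 2 and 6, Dhh was 0.17, Ptch1 -0.72 and Hhip -1.29. Fewer libraries allow fewer splits, and otherwise the cause was not tested. Low counts limit Ihh, Gli2, Gli3 and Hhip. No paired analysis was possible because the labels give no replicate numbers that pair samples across groups.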
